A study of Mus musculus with 9 samples.

Results

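The MYC, MAX and MXD network is a group of transcription factors that all act as pairs, and it was read here in mouse bone-marrow LSK cells with and without the cytokine-signalling inhibitor Socs2. Its members were taken as every probe that the platform annotation assigns to Myc, Mycn, Mycl, Max, Mxi1, Mxd1, Mxd4, Mnt, Mlx or Mga. This gave 18 probes of 10 genes, among 45281 probes on the array. The Socs2-/- group had 4 arrays and the wt group had 5. All came from male C57BL/6 mice aged 12 weeks that had received 5-fluorouracil, a drug that kills dividing cells, at 150 µg/g. LSK cells (no lineage markers, with Sca-1 and Kit on the surface, the fraction that holds stem cells and early progenitors) were sorted 6 days later. From each sample 250 pg of RNA was amplified and hybridised to Illumina bead arrays. How the Socs2 allele was built is not stated here, nor whether an array holds 1 mouse or a pool, so the spread behind each p-value is that between arrays and may be technical in part.

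MYC and its relatives MYCN and MYCL carry a basic helix-loop-helix leucine zipper and bind DNA as heterodimers with MAX, raising transcription of genes for growth and ribosome production. The MXD proteins (MXD1, MXI1 and MXD4), together with MNT and MGA, compete for the same partner and mostly repress. MLX is a partner parallel to MAX that also binds the glucose-sensing factors MLXIP and MLXIPL. In bone marrow, MYC is known for moving stem cells out of quiescence and towards differentiation, and MYCN shares part of that role. Cytokine signalling through STAT factors is among the known inputs to Myc.

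These pairs share a DNA target, the E-box CACGTG, and it also lies in promoters of the network itself. RefSeq promoter windows of GRCm38.p6, from 250 bases before to 50 bases after the gene start, matched 9 of the 10 genes, the other being Myc, with 11 windows in all. The E-box was found in 4 of the 11 windows (36.4%), against 7.15% of 32851 windows in the table. Since the motif is a palindrome, both strands give the same matches. The stretch of up to 100 bases around each match is shown because this is the sequence that MAX-containing pairs bind, with the E-box in capitals. It began 3 bases before the gene start in Max (chr12:76962199-76962298, minus strand) and 219 bases before it in Mxd4 (chr5:34187877-34187960, minus strand). In Mnt it began 123 bases before the start (chr11:74830754-74830853, plus strand), and in Mlx 40 bases before it (chr11:101087203-101087302, plus strand).
Max: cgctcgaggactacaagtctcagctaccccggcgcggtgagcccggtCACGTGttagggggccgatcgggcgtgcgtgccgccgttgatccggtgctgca
Mxd4: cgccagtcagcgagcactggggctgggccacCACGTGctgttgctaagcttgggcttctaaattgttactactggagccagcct
Mnt: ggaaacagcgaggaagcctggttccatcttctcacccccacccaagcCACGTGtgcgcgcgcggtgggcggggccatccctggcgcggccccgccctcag
Mlx: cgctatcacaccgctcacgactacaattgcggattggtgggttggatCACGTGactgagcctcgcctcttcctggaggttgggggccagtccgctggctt

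A related motif, CACGCG on either strand, was present in 2 of the 11 windows, those of Mycl and Mga, against 9.27% of all windows. TTCNNNGAA, the core spacing of STAT sites, was present in 0 of the 11, against 8.3% of all windows. A match is a string of letters, not evidence of binding, and a missing match says nothing beyond this window.

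The 2 Socs2-/- arrays numbered 1 and 2 stood apart from the other 7. They had 31.1% and 31.0% of all probes above a log2 value of 7.5, against 34.3% to 35.4% on the other arrays, and their median correlations with the remaining arrays were 0.679 and 0.647, against 0.776 to 0.816. Differences without them are therefore given below beside those of the lead network probes above the minimum of the test and of most list genes named. Socs2 itself checked the labels: its brighter probe averaged 6.71 ± 0.10 in Socs2-/- arrays (SD, n = 4) and 9.67 ± 0.40 in wt arrays (SD, n = 5), at least 4.51-fold lower against the level of 7.5. In the fit over all probes it had the smallest adjusted p, 0.068 with limma, and it passed with 1 probe a gene (0.036). Of 10 stem and progenitor markers with a named probe, 7 were above 7.5 on all 9 arrays. Kit and Flt3 were below it only on Socs2-/- array 2 (6.84 and 7.01), and Slamf1 was above it on 1 of 4 Socs2-/- and 3 of 5 wt arrays. Hlf alone of the 10 was at an unadjusted limma p under 0.05 (0.044), where 10.1% of all genes were. It had a log2 difference (Socs2-/- minus wt) of -1.39, and -0.48 without Socs2-/- arrays 1 and 2. Ly6a, the gene of Sca-1, was not analysed here. Of 12 markers of lineage-positive marrow cells, Lyz2, Siglech and Pf4 were above 7.5 on all arrays, and Ms4a1 and Elane on none. Summed over the list, they read 104.3 to 108.6 in Socs2-/- arrays and 102.8 to 114.2 in wt arrays. In such a sum opposite differences cancel. Of the 7 in that fit, 2 were at an unadjusted limma p under 0.05 (28.6%, against 10.1% of all genes), Hba-a1 higher and Mcpt8 lower in Socs2-/-. Hba-a1, an erythroid gene, was above 7.5 on all 4 Socs2-/- arrays and on 1 wt array. Its log2 difference (Socs2-/- minus wt) was 3.37 (limma adjusted p = 0.221), and 2.30 without Socs2-/- arrays 1 and 2. Klf1, also erythroid, was above 7.5 on 1 Socs2-/- and 1 wt array. Mcpt8, a basophil gene, was above it on 1 Socs2-/- array and on all 5 wt arrays. The Mcpt8 difference was -2.08 (limma adjusted p = 0.486), and -1.08 without Socs2-/- arrays 1 and 2. Cd3e was above 7.5 on 2 Socs2-/- and 3 wt arrays, Ppbp on 1 and 2, and Itgam on 1 and 0. Mpo, a granule gene of myeloid progenitors, was above it on 3 Socs2-/- and 4 wt arrays. The part of these cells in any value below was not tested.

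None of the network genes passed the test between genotypes. A probe was tested when it read above 7.5 on at least 4 of the 9 arrays, and 13 of the 18 network probes, from 9 of the 10 genes, did so. In the limma fit over 13333 probes, 0 of the 13 were called at an adjusted p under 0.05, where 0% of all tested probes were called. At an unadjusted p under 0.05 the network had 0 of 13, against 10.3% of all tested probes. In all 18 network probes the values of the genotypes overlapped, while they did not overlap in 3.02% of all named probes. Adjusted p over the 13 ran from 0.669 to 0.986. Differences (Socs2-/- minus wt, on the log2 scale) were negative in 7 and positive in 6, where 59.8% of all tested probes were negative, with a median of -0.05, beside -0.19 over all tested probes. The median size of the difference was 0.37 for the network and 0.52 for all probes. These p-values do not show that the genotypes were alike: the 95% intervals reached at least 0.77 and at most 1.82 to either side of the difference.

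**Figure D1:**
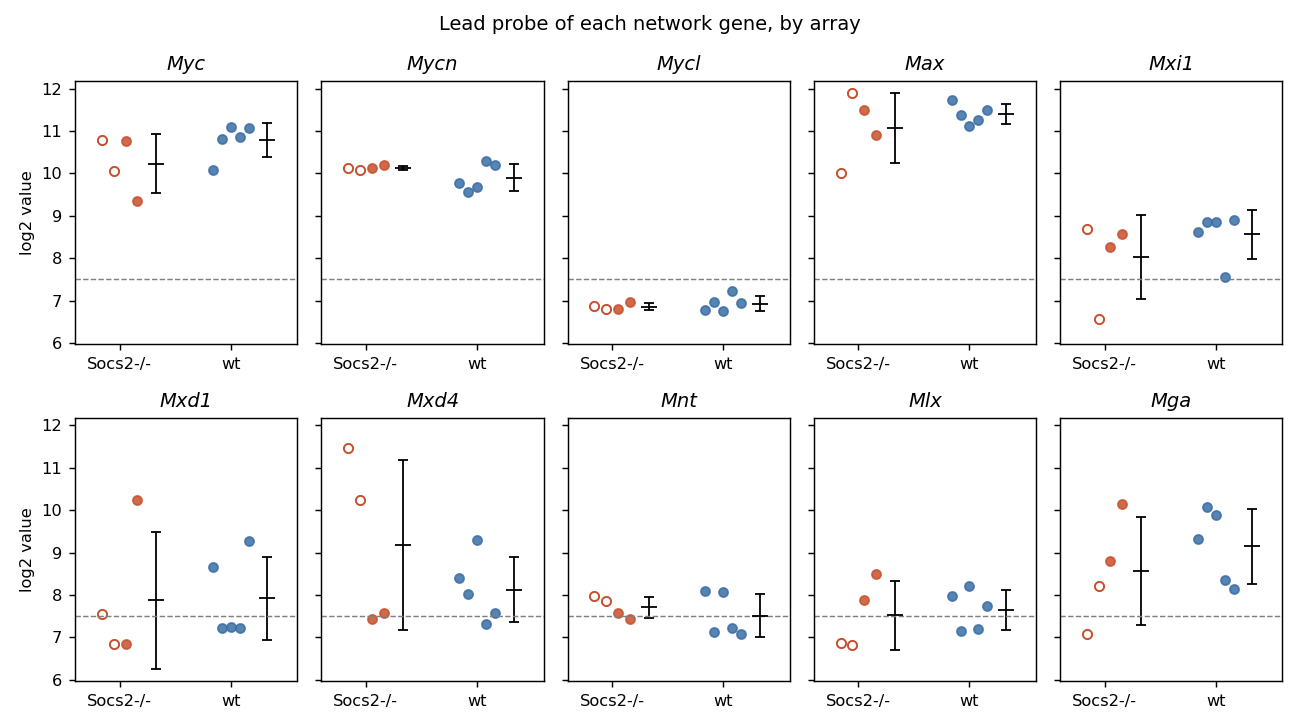
Log2 value (vertical axis) of the probe with the highest mean of each network gene, with Socs2-/- arrays on the left and wt arrays on the right of each panel; points are arrays, open points are Socs2-/- arrays 1 and 2, bars are mean ± SD and the dashed line is 7.5. In every panel the genotypes overlap, and the upper values of Mxd4 in Socs2-/- come from the 2 open points, at 11.47 and 10.23.

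Myc, the main activator of the network, read lower on average in Socs2-/- arrays by both of its probes, but not beyond the spread. The brighter probe (ILMN_1231123) read 10.78, 10.05, 10.77 and 9.34 in Socs2-/- arrays 1 to 4, and 10.09, 10.82, 11.10, 10.86 and 11.08 in wt arrays 1 to 5. The means were 10.23 ± 0.69 in Socs2-/- (SD, n = 4) and 10.79 ± 0.41 in wt (SD, n = 5). Arrays 2 and 4 of Socs2-/- and array 1 of wt were the low ones, and Socs2-/- arrays 1 and 3 lay inside the wt range. The difference was -0.56 (SE 0.43, 95% interval -1.51 to 0.40), with a limma p of 0.226 and adjusted p of 0.669. Without Socs2-/- arrays 1 and 2 it was -0.73, and with any single array left out it ran from -0.74 to -0.26, the smallest being without Socs2-/- array 4. In bulk samples such as these, a gene active in fewer cells and one with less RNA per cell cannot be told apart.

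The other Myc probe (ILMN_2623526) read 9.19, 10.57, 9.25 and 8.55 in Socs2-/- arrays, and 11.22, 9.80, 9.49, 9.27 and 9.04 in wt arrays. Its difference was -0.37 (SE 0.56, limma adjusted p = 0.833), or -0.86 without Socs2-/- arrays 1 and 2. The same sign hid a different order of arrays. Array 1 of wt was the highest by this probe and the lowest wt array by the brighter one, and array 2 of Socs2-/- was the highest of its group here and the second lowest there. Over the 9 arrays the Pearson correlation of the Myc probes was -0.14, although both were above 7.5 on every array.

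Mycn, the relative of Myc that is also active in early progenitors, read 10.13, 10.09, 10.12 and 10.20 in Socs2-/- arrays, and 9.78, 9.57, 9.67, 10.30 and 10.19 in wt arrays. The 4 Socs2-/- values lay close together inside the wt range, above wt arrays 1 to 3 and below wt array 4. The SD was 0.045 in Socs2-/- and 0.325 in wt, and the difference was 0.23 (SE 0.35, 95% interval -0.54 to 1.0, limma adjusted p = 0.833), and 0.26 without Socs2-/- arrays 1 and 2. This was the narrowest interval among the 13 network probes. Mycl, best known from dendritic cells, was at or below 7.22 on all 9 arrays, below the minimum of the test, and has only a bound here.

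Max, the obligate partner of the MYC proteins, was above 7.5 on every array by its only probe (ILMN_3068231). It read 9.9998, 11.90, 11.49 and 10.91 in Socs2-/- arrays, and 11.74, 11.38, 11.13, 11.27 and 11.49 in wt arrays. Socs2-/- arrays 1 and 4 lay below all wt values and Socs2-/- array 2 lay above them. The means were 11.08 ± 0.82 in Socs2-/- (SD, n = 4) and 11.40 ± 0.23 in wt (SD, n = 5), and the difference was -0.33 (SE 0.44, 95% interval -1.30 to 0.64, limma adjusted p = 0.809). It was 0.03 without Socs2-/- array 1 and -0.20 without Socs2-/- arrays 1 and 2.

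**Figure D2:**
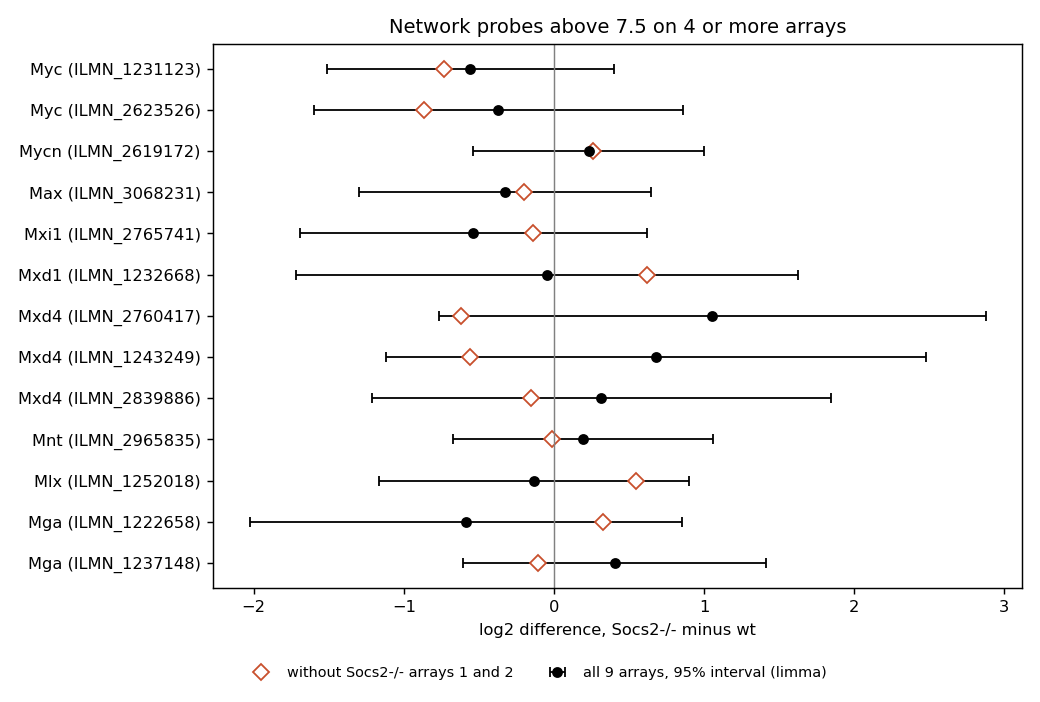
Log2 difference (horizontal axis, Socs2-/- minus wt) of the 13 network probes above 7.5 on 4 or more arrays. Filled points with bars are the limma estimates over 9 arrays with 95% intervals, all of which include 0; open diamonds are the estimates without Socs2-/- arrays 1 and 2, where all 3 Mxd4 probes have a negative sign.

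Among the repressive partners, Mxd4 had the largest positive difference of the network, and it rested on Socs2-/- arrays 1 and 2. MXD4 dimerises with MAX and is linked to cells leaving the cycle. Its lead probe (ILMN_2760417), the one with the highest mean, read 11.47, 10.23, 7.42 and 7.57 in Socs2-/- arrays, and 8.39, 8.02, 9.29, 7.32 and 7.58 in wt arrays. Arrays 1 and 2 of Socs2-/- were above every wt array, while arrays 3 and 4 were among the lowest of the 9. The means were 9.17 ± 2.0 in Socs2-/- (SD, n = 4) and 8.12 ± 0.77 in wt (SD, n = 5), with a difference of 1.05 (SE 0.83, 95% interval -0.77 to 2.88, limma adjusted p = 0.670). Without Socs2-/- arrays 1 and 2 the difference was -0.62.

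The other Mxd4 probes also had their highest value on 1 of these arrays each, one on Socs2-/- array 2 and the other on array 1. Probe ILMN_1243249 read 9.01, 11.34, 8.11 and 7.29 in Socs2-/- arrays, and 7.14, 9.18, 7.48, 7.85 and 9.66 in wt arrays, with a difference of 0.68 (SE 0.82). Probe ILMN_2839886 read 10.26, 6.84, 7.30 and 7.93 in Socs2-/- arrays, and 7.43, 8.23, 7.11, 8.92 and 7.15 in wt arrays, with a difference of 0.31 (SE 0.70). All 3 probes read above 9 on Socs2-/- array 1, but on array 2 the last one was at its lowest value of the 9. Without these arrays the differences were -0.56 and -0.15.

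Mxd1, which rises in differentiating myeloid cells, had 1 of 3 probes above the minimum of the test. That probe (ILMN_1232668) read 7.55, 6.85, 6.83 and 10.24 in Socs2-/- arrays, and 8.65, 7.21, 7.23, 7.21 and 9.28 in wt arrays. It was high on Socs2-/- array 4 and on wt arrays 1 and 5 and near or below 7.5 on the other 6 arrays, so neither genotype held the high values. The difference was -0.05 (SE 0.76, limma adjusted p = 0.986), and 0.62 without Socs2-/- arrays 1 and 2. A second probe (ILMN_1224997) was above 7.5 on 3 arrays, namely Socs2-/- arrays 1 and 4 (8.09 and 8.16) and wt array 4 (8.77), and the third was at or below 6.97 everywhere.

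Mxi1, another MXD repressor, read 8.68, 6.56, 8.26 and 8.58 in Socs2-/- arrays, and 8.62, 8.86, 8.86, 7.55 and 8.91 in wt arrays. Socs2-/- array 2 was the only array below 7.5. The difference was -0.54 (SE 0.53, 95% interval -1.69 to 0.62, limma adjusted p = 0.731), -0.05 without Socs2-/- array 2 and -0.14 without Socs2-/- arrays 1 and 2. Mnt, a broadly expressed MAX-binding repressor that opposes MYC, stayed close to the minimum, at 7.98, 7.85, 7.57 and 7.42 in Socs2-/- arrays and 8.08, 7.12, 8.06, 7.22 and 7.07 in wt arrays. Its difference was 0.20 (SE 0.39, limma adjusted p = 0.878), and -0.01 without Socs2-/- arrays 1 and 2. The group means lay near 7.5 in Mnt, so the size of that difference is uncertain.

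Mga, a large MAX partner that also belongs to a Polycomb complex, gave differences of opposite sign by its 2 probes. The lead probe (ILMN_1222658) read 7.07, 8.22, 8.81 and 10.14 in Socs2-/- arrays, and 9.32, 10.07, 9.88, 8.34 and 8.13 in wt arrays, with a difference of -0.59 (SE 0.65, limma adjusted p = 0.767). Socs2-/- array 1 was the lowest and Socs2-/- array 4 the highest of all 9. The other probe (ILMN_1237148) read 9.14, 7.77, 7.22 and 7.66 in Socs2-/- arrays, and 7.63, 7.46, 8.14, 7.23 and 7.25 in wt arrays, with a difference of 0.40 (SE 0.46, limma adjusted p = 0.771). Here Socs2-/- array 1 was the highest of the 9. Without Socs2-/- arrays 1 and 2 both signs turned, to 0.33 and -0.11.

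Mlx, the MAX-like partner of the glucose-sensing factors, was near the minimum by all 3 probes. Its lead probe (ILMN_1252018) read 6.86, 6.81, 7.89 and 8.5 in Socs2-/- arrays, and 7.97, 7.15, 8.20, 7.19 and 7.73 in wt arrays. Socs2-/- arrays 1 and 2 were the lowest of the 9 and Socs2-/- array 4 was the highest. The difference was -0.13 (SE 0.47, 95% interval -1.17 to 0.90, limma adjusted p = 0.934), and 0.55 without Socs2-/- arrays 1 and 2. It was also positive with Socs2-/- array 1 (0.09), Socs2-/- array 2 (0.10) or wt array 3 (0.005) left out alone. The other probes had differences of -0.21 and -0.09 and were above 7.5 on only 3 and 2 arrays.

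How well probes of 1 gene ran together differed between members. The 3 Mlx probes had Pearson correlations of 0.896 to 0.967 over the 9 arrays. Those of Mxd4 ran from -0.12 to 0.42 and those of Mxd1 from -0.11 to 0.43, and the Mga pair had -0.38. For comparison, the median over 7110 pairs of tested probes of 1 gene was 0.26, with 31.5% of pairs below 0. The Mlx and Mxd1 pairs are not among these, since only 1 probe of each gene was tested. Among the 1114 pairs in which both probes were above 7.5 on all 9 arrays, as the Myc probes were, the median was 0.44 and 21.6% were below 0. These are descriptions, since the pairs share arrays and RNA.

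**Figure D3:**
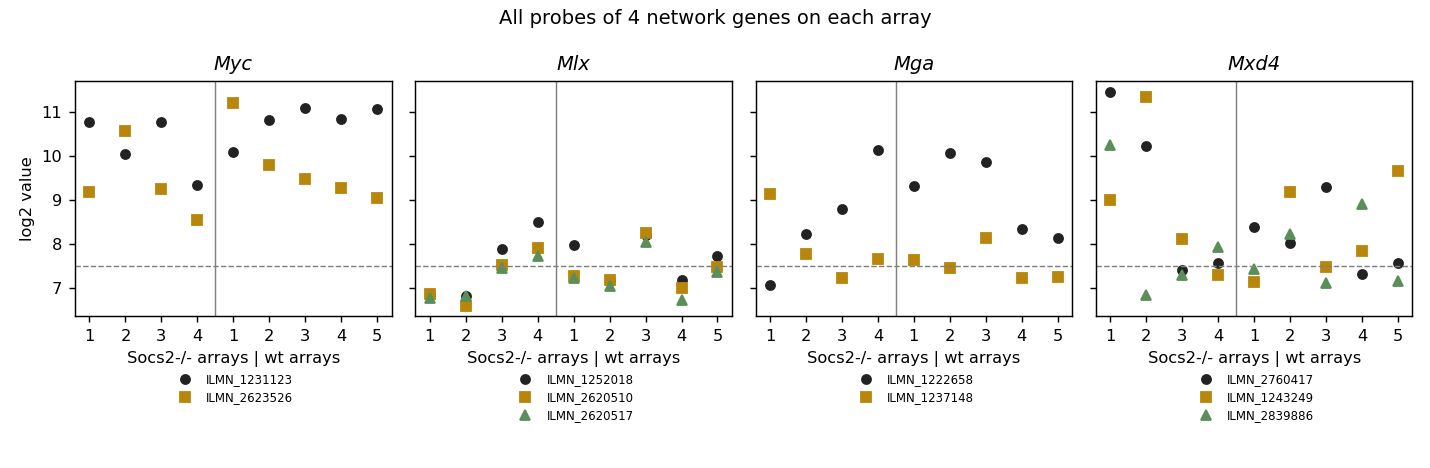
Log2 value (vertical axis) of every probe of Myc, Mlx, Mga and Mxd4 on each array, with the 4 Socs2-/- arrays left of the grey line and the 5 wt arrays right of it; each colour and marker is a probe and the dashed line is 7.5. The 3 Mlx probes follow each other (correlations of 0.896 to 0.967), whereas the Myc pair (-0.14) and the Mga pair (-0.38) do not.

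Across the array, the genes whose lead probes ran most like the brighter Myc probe were Tbrg1, Zc3h7b and Tomm22, with Pearson correlations of 0.954, 0.923 and 0.905 over the 9 arrays. Their Spearman values were 0.717, 0.700 and 0.533. With the 2 arrays farthest from the Myc median left out, Socs2-/- arrays 2 and 4, the correlations were 0.821, 0.786 and 0.660. Those most like Max were Rc3h1, Anxa1 and Cyld, at 0.954, 0.95 and 0.941, and at 0.840, 0.773 and 0.713 without Socs2-/- arrays 1 and 2, the ones farthest from the Max median. All 3 shared with Max a low value on Socs2-/- array 1, such as 6.90 for Rc3h1. They are the highest of 8290 genes searched over only 9 arrays, so values of this size are a description of these arrays and no p is given.

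Genes around the network were read from 8 lists, with 1 probe a gene. Of 127 genes listed, 103 were tested, and 0 passed at an adjusted p under 0.05 in the fit over all 13333 probes, where 0% of the 8543 genes did. In a fit with 1 probe a gene only Socs2 passed, 1 of the 8543. At an unadjusted p under 0.05 there were 13 (12.6%), 10 lower and 3 higher in Socs2-/-, against 10.1% of all genes (7.9% lower and 2.17% higher). Of these 13, 8 had a difference over 1.5 times smaller without Socs2-/- arrays 1 and 2. How many of all genes shrank as much was not counted. Sin3b alone of the 13 kept an unadjusted limma p under 0.05 there. Over all genes, 265 of 860 kept one, with the same sign. The count of 13 became 7 without Socs2-/- array 1, 4 without Socs2-/- array 2 and 15 without Socs2-/- array 3. It was 6 without wt array 3, 7 without wt array 5 and 7 without Socs2-/- arrays 1 and 2 together. Any other single array left out gave 10 to 12. The share over all tested probes moved too, from 10.3% to 8.4%, 8.06%, 14.1%, 9.74%, 8.12% and 6.19% in these 6 settings. The smallest limma adjusted p of the 103 was 0.345. A difference below 0 was found in 59 of the 103 genes, beside 5083 of the 8543 genes in all (59.5%). The values below are thus ranked within their lists and not called.

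The corepressors and partners of the MIZ1 protein, through which MXD and MYC proteins repress, had the lowest median of the 8 lists. Of 9 tested genes, 8 had a difference below 0, where 59.5% of all genes had one, and the median was -0.81 beside -0.18. At an unadjusted limma p under 0.05 there were 3 (33.3%, against 10.1% of all genes), 2 lower and 1 higher. Sin3a, the scaffold that MXD proteins recruit, read 10.30, 9.07, 9.43 and 10.54 in Socs2-/- arrays, and 10.94, 11.18, 10.93, 9.92 and 11.49 in wt arrays. Its difference was -1.06 (SE 0.47, limma adjusted p = 0.480), and -0.91 without Socs2-/- arrays 1 and 2. Sin3b, the paralogue of that scaffold, went the other way, with 7.56, 9.88, 10.23 and 10.14 in Socs2-/- arrays and 7.13, 9.01, 7.28, 8.90 and 7.44 in wt arrays. Its difference was 1.5 (SE 0.66, limma adjusted p = 0.480), and 2.23 without Socs2-/- arrays 1 and 2, and only Socs2-/- array 1 lay inside the wt range. Dnmt3a, a DNA methyltransferase reported to act with MYC at repressed promoters, had -2.08 (SE 0.63, limma adjusted p = 0.345), and -1.14 without Socs2-/- arrays 1 and 2. The list median was -0.37 without Socs2-/- arrays 1 and 2.

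Coactivators of MYC had 2 of 17 tested genes at an unadjusted p under 0.05 (11.8%), both lower, and a median of -0.11. Over all genes the share was 10.1%, with 7.9% lower and 2.17% higher. The acetyltransferase Ep300 had a difference of -1.49, which was -0.91 without Socs2-/- arrays 1 and 2, and another of its probes had 0.47. The chromatin remodeller Ep400 had -1.52, with -0.53 without Socs2-/- arrays 1 and 2, and the SWI/SNF subunit Smarcb1 had 0.99 at an unadjusted limma p of 0.112, and 0.62 without those arrays. Genes of MYC protein turnover had 2 of 12 (16.7%, beside the same 10.1% of all genes), both lower, with a median of -0.13. Gsk3b, a kinase that marks MYC for degradation, had -1.46, and -0.61 without Socs2-/- arrays 1 and 2. Huwe1, a ubiquitin ligase for MYC, had -2.14, and -0.57 without them: its value on Socs2-/- array 1 was 7.19, against 10.84 to 12.54 on the other Socs2-/- arrays and 12.50 to 12.96 in wt arrays. Another Huwe1 probe had a difference of 0.29. The ligase Stub1 had 0.80 at an unadjusted limma p of 0.099, and 0.48 without Socs2-/- arrays 1 and 2.

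Partners of MGA in its Polycomb complex had 0 of 11 at an unadjusted p under 0.05, against 10.1% of all genes. Their median was -0.44, and 0.29 without Socs2-/- arrays 1 and 2. Hdac2, Ring1 and Yaf2 had differences of -1.16, -1.06 and 1.03, and of -0.37, -0.83 and 2.37 without those arrays. The wider network had 0 of 8, with Tfap4, a MYC-induced helix-loop-helix factor, at 0.67, Bhlhe40 at -0.92 and Tfeb at -0.25. Without Socs2-/- arrays 1 and 2 these were 0.20, 0.15 and -0.04. Mxd3 and Mlxipl were not tested, being above 7.5 on fewer than 4 arrays, and Mlxipl was above it on Socs2-/- arrays 1 and 2 (8.34 and 8.0) and on no wt array.

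Genes known to be induced by MYC were divided between both directions. Of 35 tested, 18 were below 0 and 17 above, with a median of -0.02, where 59.5% of all genes were below 0. At an unadjusted limma p under 0.05 there were 5 (14.3%, against 10.1% of all genes), 3 lower and 2 higher. Rrp9, a processing factor of ribosomal RNA, read 10.45, 10.45, 11.34 and 9.33 in Socs2-/- arrays, and 10.37, 8.71, 7.42, 9.0 and 7.63 in wt arrays, with a difference of 1.77 (SE 0.64, limma adjusted p = 0.415). Ppan, which acts in the assembly of the large ribosomal subunit, read 9.05, 6.85, 10.88 and 6.95 in Socs2-/- arrays, and 11.12, 11.14, 10.37, 9.76 and 10.22 in wt arrays, with a difference of -2.09 (SE 0.78, limma adjusted p = 0.415). So these ribosome factors had opposite signs, also without Socs2-/- arrays 1 and 2 (1.71 and -1.61). Shmt2, a mitochondrial enzyme of one-carbon metabolism, had 1.54, or 0.89 without Socs2-/- arrays 1 and 2, and another of its probes had -0.28. Of 10 tested genes that MYC represses, 1 (10%) was at an unadjusted limma p under 0.05, against 10.1% of all genes. It was Ddit3, a transcription factor of the stress response, at -1.62 (-0.79 without Socs2-/- arrays 1 and 2). In that list Gadd45a had -0.78, and -0.36 without those arrays. Cdkn1c, an inhibitor of the cell cycle, had 0.99, and 2.47 without them.

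Targets of MLX and MLXIP were few. Of 10 listed, 3 were tested, all above 0, with 0 at an unadjusted p under 0.05. Over all genes, 59.5% were below 0 and 10.1% were at that threshold. Txnip, the main target of this branch and a brake on glucose uptake, read 10.85, 9.38, 11.50 and 11.23 in Socs2-/- arrays, and 10.59, 9.96, 10.23, 11.06 and 10.85 in wt arrays, a difference of 0.20 (SE 0.50, limma adjusted p = 0.904). Arrdc4, its relative, had 0.22, and Klf10 had 0.57. Without Socs2-/- arrays 1 and 2, Txnip had 0.82, Arrdc4 1.13 and Klf10 0.38.

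**Figure D4:**
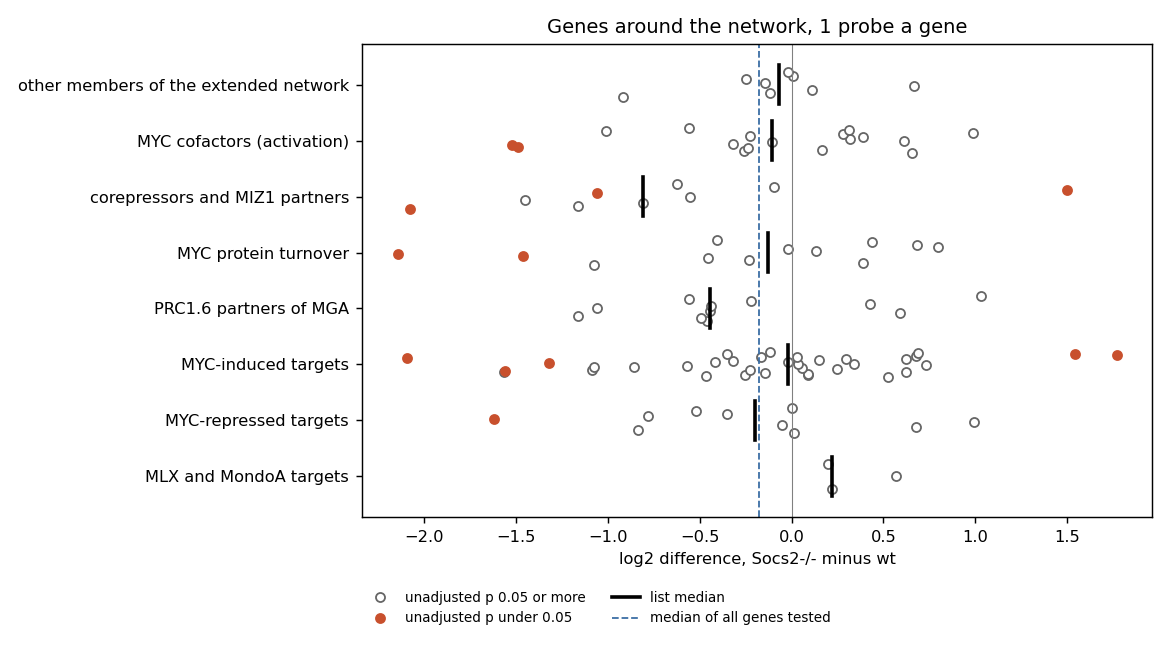
Log2 difference (horizontal axis, Socs2-/- minus wt) of each tested gene in the 8 lists around the network, 1 probe a gene. Filled points are genes at an unadjusted limma p under 0.05 (13 of 103), open points the others, black bars the list medians and the dashed line the median of all genes tested (-0.18); the corepressor list has its median at -0.81 and the list of MYC-induced genes at -0.02.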

How the data were processed

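Values of 9 Illumina bead arrays were used as the authors deposited them, and were taken to be log2 values from their range. The submitters' processing notes name the R package lumi. No source used here gives its version, the background correction or the normalization, or says whether a variance-stabilising transformation was applied, which would compress differences of dim probes. A second table was left out because its 18 columns are named by chip position, which no sample label states. Of 45281 probes, 34885 had 1 gene symbol, 18 had several and 10378 had none. Symbols were updated through Entrez identifiers, and only probes with 1 symbol were tested. Genotypes, taken from sample titles, were set against each other in limma 3.58.1 under R 4.3.3 (lmFit, eBayes, two-sided, no covariate) on the 13333 probes above 7.5 on at least 4 arrays, with Benjamini-Hochberg adjustment over all of them and a threshold of 0.05. For the lists, the probe with the highest mean stood for its gene. Named genes were all members, up to 3 genes a list with the smallest p, Socs2, the markers, and the 3 genes most correlated with Myc and with Max. The members, lists and minimum value were chosen with earlier results of these data known. The fit was tested on simulated data. The number of arrays limits the precision. Alternatives covered the minimum value, scaling, the variance model, array weights, the replicate number as a block, the choice of probe, the 2 arrays that stand apart, and each array left out.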

Additional observations from a re-analysis of the deposited data

Results flagged for a closer look

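A single array stood far from the rest of its group in 2 of the 26 groups of values examined (13 network probes in 2 genotypes), where chance flags about 1 in 20. Array 1 of wt read 10.09 for the brighter Myc probe, below the next wt value of 10.82, and the gap was 0.726 of the group's range. Array 4 of wt read 7.55 for Mxi1, below the next wt value of 8.62, with a gap of 0.785 of the range. Without wt array 1 the Myc difference was -0.73, and without wt array 4 the Mxi1 difference was -0.79.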

How the results depend on the processing

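For the network, 0 probes were called and 0 were at an unadjusted p under 0.05 with limma in each of the 22 alternatives run, from 4 probes tested (above 7.5 on all 9 arrays) to 18 (no filter). The 9 lead-probe differences kept their sign in 170 of 189 recomputed values, and Myc, Mycn and Mxi1 kept it in all that were run. Part of that count was fixed in advance. Another filter, another variance model or 1 probe a gene leaves the difference of a probe unchanged, so these settings could not turn a sign. The replicate block gave the same differences as leaving out wt array 5, so it adds nothing separate to that count. The smallest limma adjusted p was 0.394. Without Socs2-/- arrays 1 and 2 the sign turned for Mxd1 (0.62), Mxd4 (-0.62), Mnt (-0.015), Mlx (0.55) and Mga (0.33). Mxd1 also turned with arrays centred on their medians (0.068), quantile normalization (0.090) and array weights (0.029), as did Mlx with array weights (0.20). With single arrays left out, Max ran from -0.60 to 0.031, Mxd1 from -0.84 to 0.30 and Mlx from -0.46 to 0.10, and the median over the lead probes from -0.27 to 0.10. The cause was not tested. Over all probes the count called was 0, but 5 with no filter (Socs2, Prkd3, Slc45a4, Gpatch4 and Csnk2a1), 2 with a minimum of 7 (Socs2 and Prkd3), 1 (Socs2) with 1 probe a gene or with the mean of a gene's probes, and 0 to 7 with single arrays left out, the 7 being without wt array 3; apart from Socs2 these were named after their values were seen. The count of listed genes at an unadjusted p under 0.05 was 13, but 5 above 7.5 on all 9 arrays, where fewer genes were tested, 6 with array weights, 7 without Socs2-/- arrays 1 and 2, and 4 to 15 with single arrays left out. Over all tested probes the share in these settings was 10.3%, 10.7%, 7.37%, 6.19% and 7.92% to 14.1%. Replicate numbers are shared between genotypes, but same-numbered arrays did not deviate together (correlations of 0.02, -0.05, -0.06 and 0.03 for numbers 1 to 4), so they are not taken as pairs. With the replicate block the network count stayed at 0, the listed genes came to 7 and the Mxd1 difference was 0.29. Number 5 exists only in wt, so the block takes wt array 5 out of the comparison. The differences are thus those without wt array 5, where Mxd1 also had 0.29 and the listed genes also came to 7. Values near 7.5 limit Mnt, Mlx and Mxd1, whose differences can be compressed.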
